A study of Mus musculus with 22 samples.

Results

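The 205 mouse microRNAs (miRNAs) described here are the 5p arms numbered from miR-6896-5p to miR-7119-5p, of 1881 mouse miRNAs measured on each array. They were chosen by name alone, as every miRNA in that range of numbers whose name ends in 5p. Their 3p counterparts, of which the array holds 204, serve as the closest comparison. The array reads these 205 arms with 420 probes, 195 arms with 2 probes and 10 with 3.

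Most hairpins of this range are regarded as mirtrons. A mirtron is a short intron that, once spliced out and debranched, folds into a hairpin that Dicer can cut, so that its maturation bypasses the Drosha step that frees ordinary hairpins from their primary transcripts. Where both ends of such a hairpin are splice sites, the 5p arm lies at or near the start of the intron. The 3p arm then runs toward the terminal AG. Of these splice sites, only the terminal AG was examined here. As in any miRNA, the seed, bases 2 to 8 of the mature strand, is the main part that pairs with target messenger RNAs.

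The study measured miRNAs in 3 kinds of sample from male mice aged 8 weeks that had received 0 or 10 Gy of X-rays, delivered at 1.0 Gy each minute. Small intestine gave 4 arrays at 0 Gy and 4 at 10 Gy, feces likewise 4 and 4, and serum, from blood of the heart, 2 at 0 Gy and 4 at 10 Gy. The labels name no genetic alteration and no agent other than X-rays in any group, and give neither the interval between irradiation and collection nor whether each sample of a group is a different animal. The p-values therefore measure the spread between these samples, which may be technical.

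Mature sequences of 181 of the 205 arms were found in RefSeq (GRCm38.p6), and 24 had no entry. These 181 arms were rich in guanine, with a median of 43.5% G (interquartile range 38.1% to 50%), against 23.8% for the 1427 other miRNAs of the array with a sequence and 14.3% for 180 3p arms of the same range. The letters GGG occurred in 137 of the 181 arms (75.7%) and in 24.7% of the other miRNAs, and GGGG, which also counts under GGG, in 71 (39.2%) and 7.78%. All 181 lay within the span of a protein-coding gene, counted without regard to strand. Of 175 hairpins found for these arms, 162 (92.6%) ended in AG, the letters at the 3′ end of an intron, against 9.0% of 778 other hairpins of the table. The hairpins had a median length of 66 bases (52 to 137).

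Hairpins are shown for 3 arms that carry the largest fall in feces, the largest rise in intestine and the one exception among the dose-responsive arms. They are printed 5′ to 3′ with the 5p arm in capitals.
Mir7083: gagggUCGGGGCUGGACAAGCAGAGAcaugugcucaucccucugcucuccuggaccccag
Mir7118: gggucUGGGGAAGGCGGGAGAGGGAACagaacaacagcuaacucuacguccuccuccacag
Mir6901: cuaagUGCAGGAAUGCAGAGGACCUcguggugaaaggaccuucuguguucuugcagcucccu
The Mir7083 hairpin lies at chr9:21809941-21810000 on the minus strand of GRCm38.p6, within the span of Dock6, a guanine nucleotide exchange factor gene. Mir7118 lies at chr15:89162848-89162908 on the minus strand, within Plxnb2, which encodes a semaphorin receptor. Mir6901 lies at chr1:93274549-93274610 on the plus strand, within Sned1. Of 22 arms that passed a dose test in any sample type, 21 had a hairpin. In 20 of these the hairpin ended in AG, in 19 of them in CAG, and in 18 the mature arm began at base 6. Mir6901 was the only one that did not end in AG.

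The mature arms that passed a dose test follow with the seed in capitals, first the 8 of feces.
miR-7083-5p: uCGGGGCUggacaagcagaga
miR-6989-5p: uUGGGGACagaggcacaggaug
miR-6901-5p: uGCAGGAAugcagaggaccu
miR-7039-5p: aGAGGGAUggagagcaucgcgu
miR-7019-5p: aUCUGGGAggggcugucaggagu
miR-7088-5p: gCAAGUGGuggugaggaggggaaac
miR-6946-5p: aAAAGGGAgagaaagaaaugc
miR-7016-5p: cAGGGAGGggagcgagaguag
The arms of intestine follow, 4 that fell and then 8 that rose. miR-7088-5p, printed above, also belongs to the latter, and miR-7040-5p had no entry.
miR-7002-5p: uUGGCUUCggggaguacgugg
miR-7005-5p: cCUGGGGAugggaggaccagca
miR-6998-5p: cUGGGCAGagggcaaagugacu
miR-6931-5p: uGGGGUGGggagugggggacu
miR-6995-5p: cUGGGAGUagaagggggaaacca
miR-6987-5p: uGGGACAGggugacagggugag
miR-6944-5p: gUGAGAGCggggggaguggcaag
miR-7036a-5p: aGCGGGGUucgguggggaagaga
miR-7082-5p: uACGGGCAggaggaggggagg
miR-7045-5p: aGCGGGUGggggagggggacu
miR-7014-5p: uUGGGUGCuguggaagggacag
miR-7118-5p: uGGGGAAGgcgggagagggaac
Serum had a single such arm, printed here with miR-7052-5p, which was detected on every feces array and on no array of the other types.
miR-7031-5p: cCUGAGAGgccugaaggguggga
miR-7052-5p: uGUGGGAAgguggaggccuuu
No seed is shared between any pair of the printed arms. Over all 181 sequences, 18 seeds were shared by 2 or 3 arms and together covered 40 arms. No dose call was shared between arms with a common seed, but most partners of such arms that passed were not tested in the same sample type. miR-7019-5p passed in feces (-1.65 on the log2 scale) while miR-6907-5p, with the same seed UCUGGGA, had a change of -0.16 there (limma adjusted p = 0.65). miR-7005-5p, which passed in intestine, shares CUGGGGA with miR-6975-5p, which was not tested there. Likewise miR-7016-5p passed in feces, where miR-6967-5p, with the same seed AGGGAGG, was not tested. Whether arms of one seed differ in their response was not tested.

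Detection on an array required a probe whose spots lay well above background in 50% of cases or more. Feces held the most of these 5p arms. On all 8 feces arrays 68 of the 205 were detected, on some arrays 76 and on none 61. In intestine the corresponding numbers were 31, 21 and 153, and in serum, over 6 arrays, 24, 20 and 161. The share of the 205 arms detected on every array was 33.2% in feces, where it was 17.3% over all 1881 miRNAs, 11.7% against 6.43% in serum and 15.1% against 14.2% in intestine.

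The number of arms detected on single arrays was 101, 78, 142 and 110 in feces at 0 Gy and 98, 91, 99 and 84 at 10 Gy. In serum it was 44 and 36 at 0 Gy and 38, 28, 31 and 24 at 10 Gy. In intestine it was 36, 35, 33 and 34 at 0 Gy and 36, 48, 46 and 38 at 10 Gy. The doses overlapped in every sample type, and the widest spread was that of unirradiated feces. Of all miRNAs detected on an array, these arms made up 18.8% to 21.6% in feces, 17.9% to 21.6% in serum and 10.7% to 12.4% in intestine, with no overlap between intestine and the other types.

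**Figure D1:**
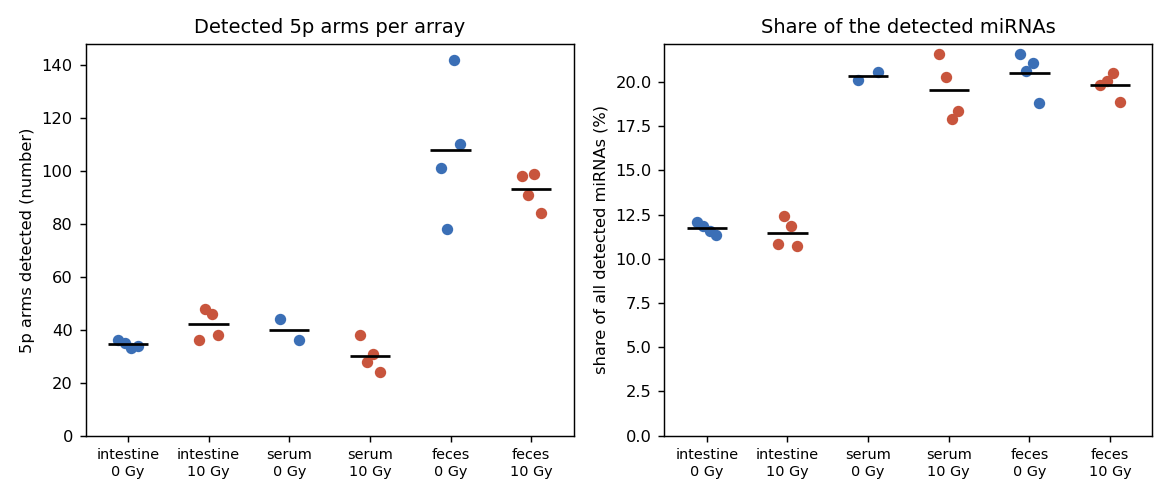
Number of 5p arms detected on each array (left, of 205) and their share of all miRNAs detected on that array (right, %), by sample type and dose; each point is 1 array and each bar the mean of its group. All 8 intestine arrays lie at or below 12.4%, and all serum and feces arrays at or above 17.9%.

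Arms detected throughout intestine or serum were, with 1 exception, also detected throughout feces. Of the 69 arms detected on every array of at least 1 type, 68 were detected on every feces array. A set of 20 was detected on all 22 arrays of the series, 34 on every array of feces alone, 10 on every array of intestine and feces, and 4 on every array of serum and feces, namely miR-6907-5p, miR-7040-5p, miR-7046-5p and miR-7088-5p. miR-7009-5p alone was detected on every array of intestine but not on every array of another type. In feces it was detected on 3 of 4 arrays at 0 Gy and on all 4 at 10 Gy. A further 59 arms were not detected on any array.

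Where 1 arm of a hairpin was detected throughout a sample type, it was mostly the 5p arm. Over the 203 hairpins with both arms on the array, the 5p arm alone was detected on every intestine array for 30 hairpins and the 3p arm alone for 0. In serum the numbers were 24 and 1, the latter miR-7022-3p, and in feces 61 and 5, with both arms detected in 7 hairpins.

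Detected arms had more guanine than undetected ones. In feces the median was 50% G for arms detected on every array, 42.9% for arms detected on some and 39.1% for arms detected on none. In intestine it was 53.3% for arms on every array and 42.9% for arms on none, and in serum 54.2% and 42.9%. The 20 arms detected on all 22 arrays had a median of 54.2% G, and the 59 detected on none 39.1%. The same order was seen among the other miRNAs, with 38.5% G on every feces array against 22.7% on none, 41.7% against 22.7% in serum and 27.3% against 22.7% in intestine. Base composition also affects how strongly a probe binds, and its part in detection was not tested. Across tested arms with a sequence, guanine content and the dose change had a Pearson correlation of 0.24 in feces (90 arms), 0.30 in intestine (35) and 0.27 in serum (37), where all points share the same arrays.

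**Figure D2:**
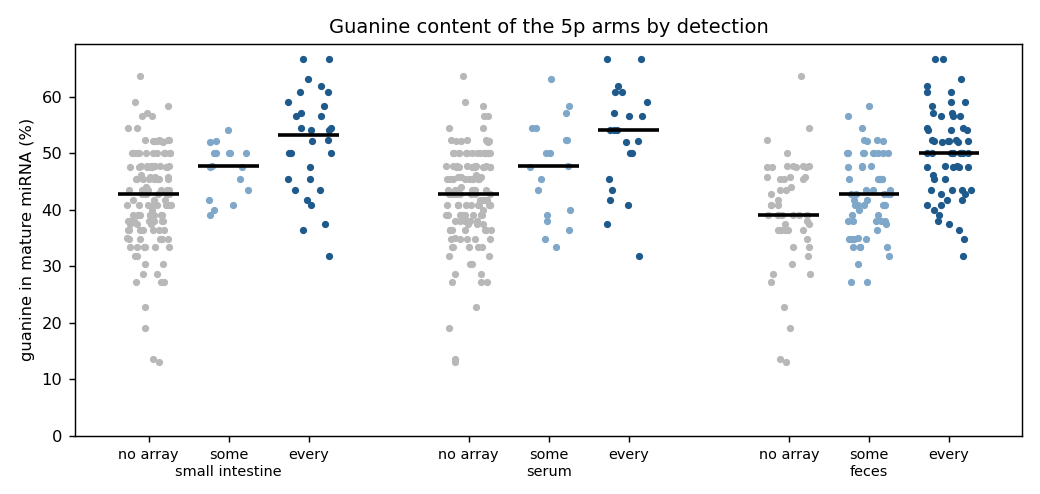
Guanine content (%) of the mature 5p arms with a sequence, grouped in each sample type by detection on no array, on some or on every array; each point is 1 arm and each bar the median. The medians for arms detected on every array are 53.3% in intestine, 54.2% in serum and 50% in feces, above the 42.9%, 42.9% and 39.1% of arms detected on none.

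Levels are given as the log2 of a miRNA's signal, summed over its probes, relative to a reference level of the array, its 75th percentile among miRNAs found on every array of the sample type. Low values were raised to a floor, the lowest level typical of a detected miRNA, which was -7.20 in feces, -5.79 in intestine and -4.63 in serum. Because probes differ in how strongly they bind, levels are compared between samples and not between miRNAs. A change is the irradiated minus the unirradiated mean level, given with the limma fit's standard error (SE), and an arm passed when its p, adjusted by the Benjamini-Hochberg method over all miRNAs tested, was below 0.05. In intestine the signal covers a mixture of cells, in which fewer cells of a type and less RNA per cell cannot be told apart. The origin of the RNA in feces and serum was not tested.

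All arrays of a sample type lay on 1 slide, so slide and sample type cannot be told apart. The doses lay in different columns of each slide and cannot be told apart from the column. Both rows of a slide held both doses. The 75th percentile of an array ranged from 439 to 880 in intestine, from 128 to 517 in serum and from 529 to 2627 in feces, where 0 Gy replicate 3 stood apart with 2627 and with 675 detected miRNAs against 378 to 585 on the other feces arrays. All 9 listed miRNAs of intestinal epithelium were detected on every intestine array. In serum 1 of the 9 was, and 8 of the 9 were in feces.

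In feces, most of the arms that passed the dose test were lower at 10 Gy. Of 101 arms tested, 8 passed, 7 lower and 1 higher, beside 7.54% of all 491 miRNAs tested (4.07% lower, 3.46% higher). The share of arms that passed was thus close to the background, while the median change of the 101 arms was -0.26 against 0.15 over all 491 (0.11 against 0.21 with normexp background correction). An arm could enter the test by detection at 1 dose alone, as miR-7083-5p and miR-7039-5p did at 0 Gy. With detection required on every feces array, 68 arms were tested. Of these, 1 passed as higher and 0 as lower, beside 1 and 2 of all 326 miRNAs. In the fit used here, a further 20 arms had an unadjusted limma p below 0.05 without passing. The doses did not overlap in 21 of the 101, where 29.1% of all tested miRNAs did not overlap.

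The largest fall was that of miR-7083-5p. Its level was -2.09, -2.90, -0.47 and -3.43 in the 4 samples at 0 Gy and -6.14, -6.69, -5.66 and -6.99 in the 4 at 10 Gy. It was detected on 4 of 4 unirradiated and 0 of 4 irradiated arrays, so the fall has only a bound, at least 6.95-fold. The fitted change was -4.15 ± 0.60 (SE, n = 4 against 4, limma adjusted p = 0.0082), and its 2 probes gave -2.85 and -2.80 each. Such a bound compares, per probe, the mean of the bright group with the lowest signal of a detected probe on the dim arrays or with the probe's own, whichever is higher.

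miR-6989-5p, from a hairpin within Map4k2, a kinase gene, had levels of -2.06, -2.99, -0.70 and -3.14 at 0 Gy and -4.69, -4.18, -4.25 and -5.24 at 10 Gy. It fell by 2.37 ± 0.53 (adjusted p = 0.033). miR-6901-5p stood at -2.15, -2.81, -1.62 and -2.95 against -4.36, -3.93, -3.52 and -5.07. Its change was -1.84 ± 0.41 (adjusted p = 0.033). In both, every irradiated sample lay below every unirradiated one.

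miR-7039-5p, within Smurf1, a ubiquitin ligase gene, was detected on 4 of 4 unirradiated arrays (-4.74, -6.0, -4.40 and -5.81) and 0 of 4 irradiated ones (-7.06, -7.00, -6.81 and -7.20). It was at least 2.16-fold lower (-1.78 ± 0.37, adjusted p = 0.029), but its change was 0.0236 with normexp. The other falls were those of miR-7019-5p, within the mitochondrial kinase gene Pink1 (-1.65 ± 0.41, adjusted p = 0.045), and of miR-6946-5p, within the vesicle coat gene Sec24c (-1.41 ± 0.35, adjusted p = 0.044, but a change of 0.0108 with normexp). Each was detected on 4 arrays at 0 Gy and 3 at 10 Gy.

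miR-7088-5p, from a hairpin within Mst1, the gene of macrophage-stimulating protein, was detected on every feces array. It had levels of 4.85, 4.16, 5.39 and 3.93 at 0 Gy and 3.42, 3.38, 3.16 and 2.56 at 10 Gy. Its fall was 2.74-fold (-1.45 ± 0.37, adjusted p = 0.046). In all 7 arms that fell, the highest level was that of 0 Gy replicate 3, the array with the most detected miRNAs.

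The single rise was that of miR-7016-5p, within Tmem39b. Its 4 unirradiated samples lay close together at -1.61, -1.56, -1.72 and -1.54, and the irradiated ones at -0.72, -0.36, -0.67 and -0.11. The rise was 2.21-fold (1.14 ± 0.22, adjusted p = 0.026). In serum the same arm had a change of -0.48 ± 0.29 (adjusted p = 0.46), and in intestine it was at the floor on every array.

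**Figure D3:**
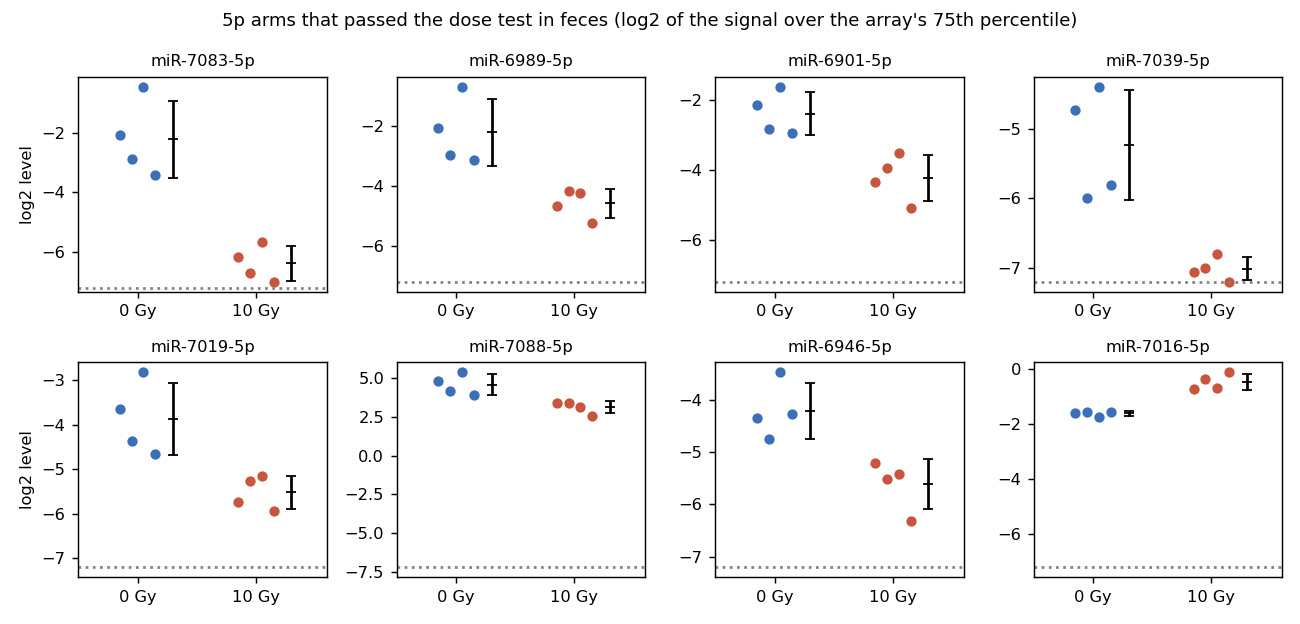
Levels in feces (log2 of the signal over the array's 75th percentile) of the 8 arms that passed the dose test, at 0 Gy (blue) and 10 Gy (red); each point is 1 array, the bar beside it the mean with its SD (n = 4), and the dotted line the floor of -7.20. The doses do not overlap in any panel; miR-7016-5p is higher at 10 Gy and the other 7 are lower.

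The 3p arms of the same range of hairpins leaned the other way in feces, without passing. Of 30 tested, 27 had a positive change, with a median of 0.68 (-0.56 to 1.61), and limma gave 24 at an unadjusted p below 0.05 and 0 after adjustment, the lowest adjusted p being 0.074. Their median was 0.04 without scaling, and 23 passed without 0 Gy replicate 4 and 22 with array weights. With normexp both kinds of arm leaned the same way, with medians of 0.32 for the 3p arms and 0.11 for the 5p arms. In intestine no 3p arm was tested, and of 2 tested in serum limma gave 0 at an unadjusted p below 0.05.

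The feces calls rested on few arrays. Leaving out 1 array in turn gave from 0 to 22 arms that passed, with 0 without 0 Gy replicate 1, 4 without 0 Gy replicate 3, 22 without 0 Gy replicate 4, 4 without 10 Gy replicate 1, and 0, 1 and 0 without 10 Gy replicates 2, 3 and 4. In the 3 fits with 0, limma gave 18 to 25 arms at an unadjusted p below 0.05. Without 0 Gy replicate 3 the change of miR-7088-5p was -1.18 and that of miR-6901-5p -1.59, neither passing, while miR-7083-5p passed. Every one of the 8 kept its sign within each row of the slide, which was fixed in advance, as their doses did not overlap. The changes within the rows ran from -3.92 and -4.37 for miR-7083-5p to 1.04 and 1.24 for miR-7016-5p. With the row as a block 5 arms passed.

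In small intestine, 14 of 38 tested arms passed, 10 higher and 4 lower, beside 41.8% of all 335 miRNAs tested (26% higher, 15.8% lower). The median change was 0.14 over the 38 arms and 0.16 over all 335. The doses did not overlap in 9 of the 38, against 39.4% of all tested. The numbers of rises and falls depended on the scaling. There were 5 higher and 6 lower after quantile normalization, 4 and 10 with the percentile taken over all miRNAs, 17 and 2 with no scaling, and 3 and 8 with normexp background correction. The median over all 335 was 0.16 with the scaling used here, 0.01, -0.35 and 0.62 under the first 3 of these, and -0.15 with normexp. Relative to it the median of the arms lay between -0.03 and 0.03 under all 5.

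The strongest rise was that of miR-7118-5p, within Plxnb2, which was detected on all 22 arrays of the series. Its level in intestine was -0.22, -0.97, -0.45 and -0.76 at 0 Gy and 1.36, 1.03, 1.13 and 0.63 at 10 Gy. This was a 3.12-fold rise (1.64 ± 0.22, adjusted p = 0.0001), with both probes between 1.56 and 1.71. In the other sample types the same arm had changes of 0.14 ± 0.19 in serum and -0.30 ± 0.30 in feces (adjusted p = 0.69 and 0.48).

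miR-7045-5p, within Chd4, a gene of a nucleosome remodelling enzyme, was at -3.44, -3.99, -3.49 and -3.97 at 0 Gy and at -2.48, -2.05, -1.95 and -2.68 at 10 Gy (1.43 ± 0.22, adjusted p = 0.00036). miR-7082-5p, within Raver1, was at -1.88, -2.16, -1.94 and -2.03 and then at -1.42, -0.91, -0.97 and -1.35 (0.84 ± 0.18, adjusted p = 0.0033). Neither overlapped between the doses, and both were detected on all 22 arrays.

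Arms that were at the limit of detection without irradiation also rose. miR-7014-5p, within the extracellular matrix gene Ecm1, was detected on no array at 0 Gy (-5.04, -5.62, -5.50 and -5.79) and on all 4 at 10 Gy (-4.40, -3.58, -3.83 and -4.31). It was at least 1.26-fold higher (1.46 ± 0.23, adjusted p = 0.00047), while its detected probe changed by 0.33, and with normexp its change was -0.07. miR-7040-5p was detected on 1 array at 0 Gy and on all 4 at 10 Gy, with levels of -4.29, -4.55, -4.63 and -5.17 against -3.60, -2.64, -3.08 and -3.40 (1.48 ± 0.24, adjusted p = 0.00059).

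The remaining 5 rises were smaller, from 0.60 ± 0.21 for miR-6995-5p (adjusted p = 0.034) to 0.94 ± 0.32 for miR-7088-5p (adjusted p = 0.034), with miR-6987-5p at 0.70, miR-6944-5p at 0.74 and miR-7036a-5p at 0.80. With normexp the changes of miR-6995-5p, miR-6987-5p, miR-6944-5p and miR-7088-5p turned slightly negative. The doses overlapped in 4 of these 5, miR-6944-5p excepted, and each of the 5 lost its call when 1 of 3 to 5 single arrays was left out. Leaving out 1 array in turn gave 9 to 17 arms that passed, 9 of them without 0 Gy replicate 2.

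Among the 4 falls, miR-7002-5p, within the spliceosomal helicase gene Aqr, was the largest. Its level was -2.73, -2.19, -1.94 and -2.58 at 0 Gy and -4.32, -4.72, -2.88 and -4.45 at 10 Gy (-1.73 ± 0.34, adjusted p = 0.0021). miR-6931-5p, within Dcakd, fell from -1.09, -1.21, -0.37 and -0.85 to -2.01, -1.77, -2.19 and -2.20 (-1.16 ± 0.21, adjusted p = 0.0011). Both were lower in every irradiated sample and kept their call without any single array.

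miR-7005-5p, within Lama5, which encodes a laminin chain of basement membranes, was at 1.5, 0.54, 0.17 and -0.81 at 0 Gy and at -1.58, -0.85, -0.90 and -0.89 at 10 Gy (-1.41 ± 0.38, adjusted p = 0.013). Its highest irradiated sample lay just below its lowest unirradiated one, and it did not pass without 10 Gy replicate 1 (-1.23). miR-6998-5p, within Fubp3, was detected on 4 of 4 unirradiated arrays (-4.12, -3.84, -3.94 and -3.75) and on 1 of 4 irradiated ones. Its irradiated samples were at the floor of -5.79 in 3 cases and at -3.87 in the other (-1.40 ± 0.37, adjusted p = 0.011).

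**Figure D4:**
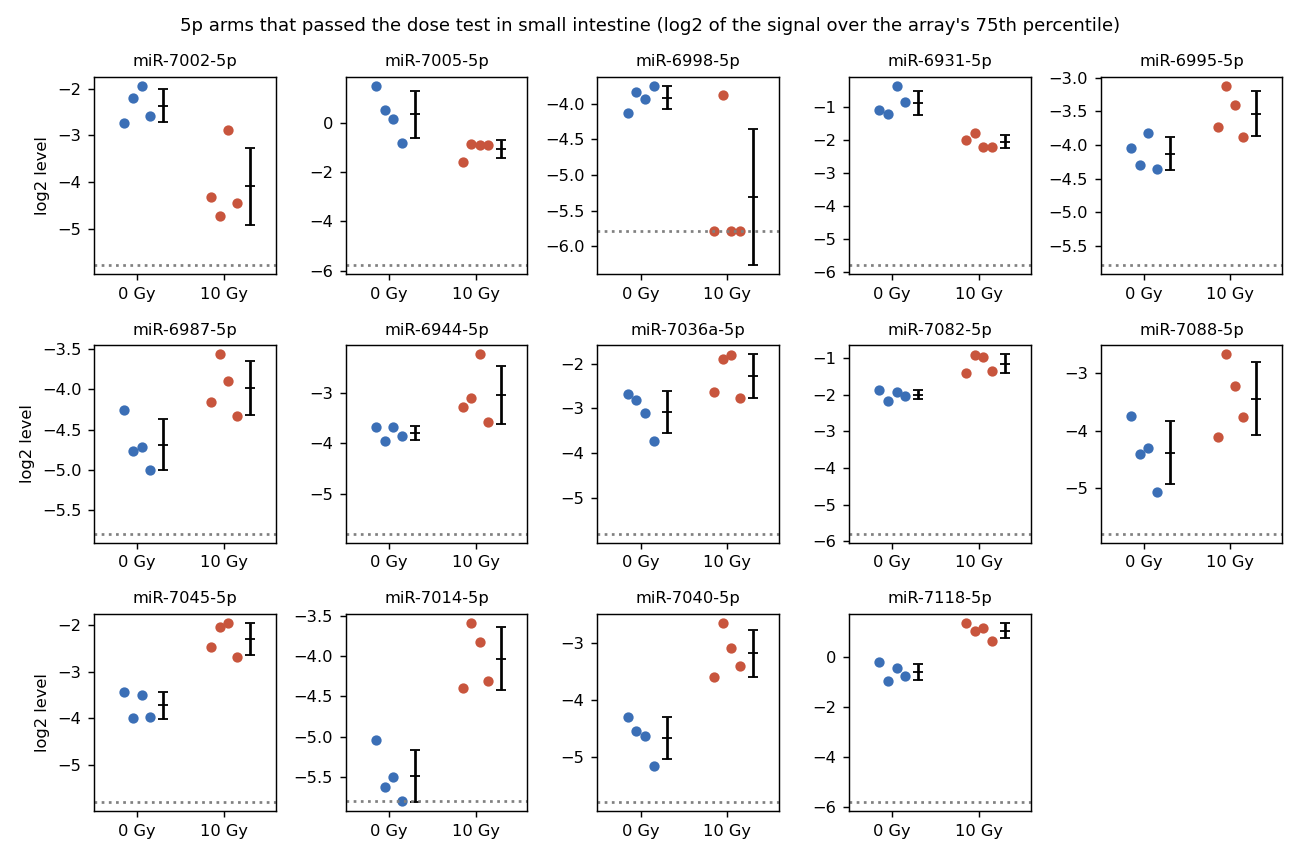
Levels in small intestine (log2 of the signal over the array's 75th percentile) of the 14 arms that passed the dose test, at 0 Gy (blue) and 10 Gy (red); each point is 1 array, the bar beside it the mean with its SD (n = 4), and the dotted line the floor of -5.79. The 4 arms that fell come first; miR-7118-5p, the last panel, lies between -0.97 and -0.22 at 0 Gy and between 0.63 and 1.36 at 10 Gy.

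Every one of the 14 kept its sign within both rows of the slide, which was fixed in advance for those whose doses did not overlap. With the row as a block 16 arms passed. Other quantities were followed on the same arrays. Of those below, the summed levels of the leukocyte, the smooth muscle and mesenchyme and the erythrocyte miRNAs overlapped between the doses. The number of detected miRNAs was 285 to 300 at 0 Gy and 332 to 389 at 10 Gy, and the 75th percentile 439 to 538 and 553 to 880. The summed level of the 9 epithelial miRNAs was 6.65 to 7.15 at 0 Gy and 5.66 to 6.55 at 10 Gy, with 5 of the 9 falling. The summed level of 5 leukocyte miRNAs was 0.87 to 1.71 and 0.82 to 1.18, of which 3 fell and 1 rose. That of 5 smooth muscle and mesenchyme miRNAs was 2.23 to 2.59 and 2.53 to 3.01, of which 2 rose, miR-199a-3p (0.80) and miR-214-3p (1.03). For 3 erythrocyte miRNAs it was -2.10 to -1.38 and -2.04 to -0.89, and 1 of the 2 tested rose, miR-486a-5p (0.66). Their part in the changes of these arms was not tested.

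Serum gave 1 arm that passed of 40 tested, miR-7031-5p, beside 4.66% of all 193 miRNAs tested (3.63% lower, 1.04% higher). This arm, within the adaptor gene Sh2b3, was at -3.17 and -2.61 in the 2 unirradiated samples and at the floor of -4.63 in all 4 irradiated ones. It was detected on 2 of 2 and 0 of 4 arrays, at least 1.25-fold lower (-1.74 ± 0.22, n = 2 against 4, adjusted p = 0.010), and its probes changed by -0.42 and -0.32. With normexp its change was 0.00149. Leaving out 1 array gave 1 to 3 arms that passed, with 2 without 0 Gy replicate 1 and 3 without 0 Gy replicate 2 or without 10 Gy replicate 1. A lone unirradiated sample is then assumed to vary like the other group. The median change of the 40 arms was -0.18, and -0.11 over all 193. The doses did not overlap in 10 of the 40, against 30.1% of all tested.

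miR-6988-5p, chosen after its values were seen, was likewise detected on 2 of 2 arrays at 0 Gy and 0 of 4 at 10 Gy, and did not pass (-0.92 ± 0.25, adjusted p = 0.095). On the serum arrays the summed level of 3 erythrocyte miRNAs was 4.13 to 4.36 at 0 Gy and 2.49 to 3.02 at 10 Gy, and both tested members fell. That of the 9 epithelial miRNAs was -2.45 to -1.55 and -0.41 to 1.06, with 8 of the 9 detected on no serum array and miR-375-3p, the 1 tested, rising by 2.61. Their part in these changes was not tested.

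**Figure D5:**
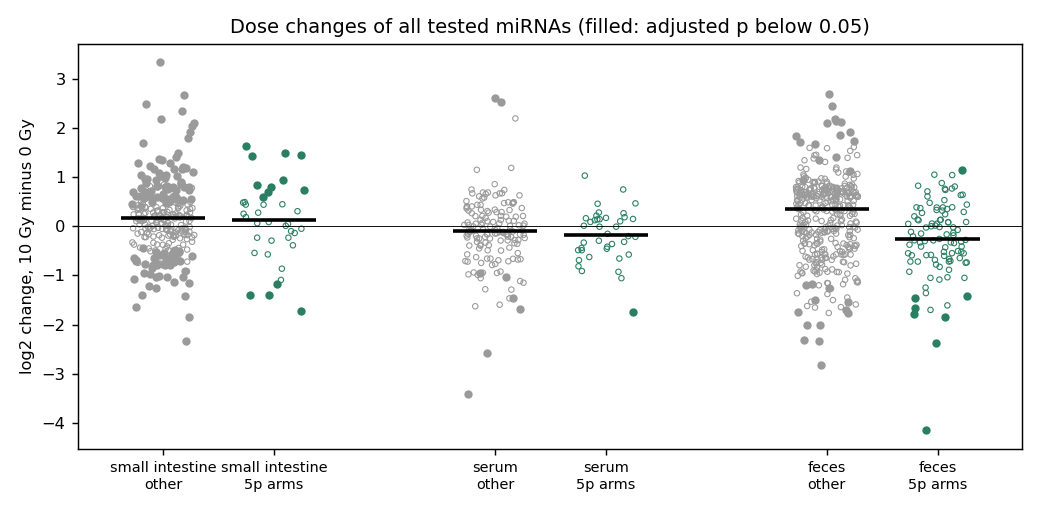
Log2 change from 0 to 10 Gy of every tested miRNA in each sample type, for the 5p arms (green) and for the other miRNAs (grey); filled points passed at an adjusted p below 0.05, bars are medians, and the horizontal spread within a column has no meaning. The medians are 0.14 for the arms and 0.16 for the others in intestine, -0.18 and -0.10 in serum, and -0.26 and 0.35 in feces.

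Of the 20 arms detected on all 22 arrays, the 12 with the smallest spread in unirradiated intestine were miR-6973b-5p, miR-7011-5p, miR-6898-5p, miR-6944-5p, miR-6908-5p, miR-7082-5p, miR-6984-5p, miR-7045-5p, miR-6995-5p, miR-7070-5p, miR-6965-5p and miR-7118-5p. Over all 20, 6 rose and 2 fell in intestine, beside the 26% and 15.8% of all tested miRNAs given above. The 2 that fell, miR-7005-5p and miR-6931-5p, and 1 that rose, miR-7036a-5p, are not among these 12. In serum and feces none of the 20 passed limma's test, with 2 and 10 at an unadjusted p below 0.05. The changes of the 12 ranged from -0.81 (miR-6944-5p) to 0.28 (miR-6973b-5p) in serum, and from -1.25 (miR-6973b-5p) to 0.71 (miR-7045-5p) in feces. Between arrays of one group, the arms varied more than the other miRNAs in intestine, with a median SD of 0.36 against 0.19 at 0 Gy and 0.40 against 0.29 at 10 Gy. In feces the medians were 0.51 against 0.47 and 0.39 against 0.38 (0 and 10 Gy), and in serum 0.13 against 0.26 and 0.29 against 0.34.

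A list of 10 arms of mirtron hairpins outside the number range, of miR-702, miR-877, miR-1224 and miR-3102, was also followed. In intestine 5 were tested and 2 rose, miR-877-5p (2.67 ± 0.20, adjusted p = 1.5e-06) and miR-3102-5p (1.70 ± 0.21, adjusted p = 6.7e-05). The former was detected on none of 4 arrays at 0 Gy and on all 4 at 10 Gy. Of 5 tested in serum and 6 in feces none passed limma's test, with 0 and 3 at an unadjusted p below 0.05, and miR-877-5p had a change of -1.27 ± 0.36 in feces (adjusted p = 0.066).

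Whether a dose change differed between sample types was tested in a single limma fit of all 6 groups, on a common scale with its own percentile and a floor of -6.41. Of 92 arms tested, 23 differed between feces and intestine, 8 higher in feces and 15 lower, beside 17% of all 581 miRNAs tested (7.57% higher, 9.47% lower). The split was 0 and 26 without scaling, beside 3 and 178 of all 581. With normexp it was 5 and 2, beside 18 and 4 of all 581. Without feces 10 Gy replicate 4, 15 arms differed. Between serum and intestine 11 differed, 3 higher in serum and 8 lower, beside 10.5% (2.24% and 8.26%). There the split was 0 and 9 without scaling, beside 3 and 102 of all 581. With normexp it was 58 and 1, beside 402 and 12 of all 581.

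miR-7088-5p was the only arm that passed the dose test in more than 1 sample type, and it did so in opposite directions. On the common scale its level in feces was 2.69, 1.94, 2.65 and 1.89 at 0 Gy and 1.26, 1.48, 0.97 and 0.56 at 10 Gy. In intestine it was -4.17, -4.62, -4.47 and -5.01 against -4.09, -3.41, -3.69 and -3.77. The dose change was thus -1.23 in feces and 0.83 in intestine, a difference of -2.05 ± 0.33 (adjusted p = 0.00043). In serum its change did not pass (0.18 ± 0.25, adjusted p = 0.68). Neither of the calls of miR-7088-5p was firm. That of intestine was lost in 5 fits with 1 array left out, and the change there was -0.06 with normexp. On the scale of intestine alone the doses overlapped, with detection on 2 of 4 arrays at 0 Gy. The call in feces was lost at least without 0 Gy replicate 1 or 3 and without 10 Gy replicate 2 or 4, each left out alone.

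miR-7002-5p differed in the other sense, with a change of -1.84 in intestine and 0.52 in feces (difference 2.36 ± 0.47, adjusted p = 0.0023). miR-6931-5p fell by 1.28 in intestine and had changes of 0.87 in feces and 1.01 in serum, differences of 2.15 ± 0.33 and 2.28 ± 0.37 (adjusted p = 0.0003 and 0.00046). miR-7118-5p changed by 1.53 in intestine against -0.07 in feces and 0.12 in serum (differences -1.60 ± 0.39 and -1.41 ± 0.44, adjusted p = 0.0084 and 0.046). miR-7083-5p, miR-6989-5p, miR-6901-5p, miR-6994-5p and miR-7016-5p were at the floor on every intestine array, so that their difference between feces and intestine restates the change in feces. Likewise miR-7002-5p and miR-6998-5p were not detected on any serum array and had a serum change of 0, so that their difference between serum and intestine restates the fall in intestine.

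Without irradiation, most arms that differed between feces and intestine were higher in feces, but the split depended on the processing. Arms entered this test by detection on every array of at least 1 group, and 34 were detected on every array of feces alone. An arm could therefore enter only through feces, where it was high. Of 92 arms tested, 66 differed, 54 higher in feces and 12 lower, beside 74.7% of all 581 miRNAs tested (30.8% higher, 43.9% lower). Of the 54 higher in feces, 35 were not detected in unirradiated intestine. A fold above 1 could be bounded for 12 of these 35 and not for the other 23, and for 15 of the 23 every detected probe lay lower in feces than its bound in intestine. The median difference of the 92 was 0.83, against -0.09 over all 581. The groups did not overlap in 59 of the 92, against 69.9% of all tested, and 10 of the 92 were at the floor in both groups. The split was 71 higher and 6 lower after quantile normalization, 85 and 0 without scaling, and 15 and 25 with normexp. Over all 581 it was 267 and 211, 365 and 174, and 42 and 339 in the same order.

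miR-7088-5p was 116-fold higher in feces than in intestine (6.86 ± 0.23, adjusted p = 8.9e-15), where it was detected on 2 of 4 arrays. In serum it stood at -1.52 and -1.56, between the other types, 8.16-fold above intestine (3.03 ± 0.28, adjusted p = 2.3e-08). miR-7118-5p was 28.1-fold higher in feces than in intestine, miR-7020-5p 24.7-fold and miR-6995-5p 24.4-fold. These 3 arms were detected on every array of both types.

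miR-7052-5p, within Josd2, was detected on all 8 feces arrays and on no array of the other types. Its level on the common scale was 0.21, 0.54, -0.63 and 0.84 in feces at 0 Gy and 0.83, 0.74, -0.44 and 0.44 at 10 Gy, against the floor elsewhere. It was at least 25.5-fold higher in unirradiated feces than in intestine and at least 27.7-fold higher than in serum. miR-6942-5p, within Zkscan3, showed the same pattern of detection, at least 2.95-fold and 3.20-fold.

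The largest excess of intestine over feces was that of miR-7042-5p. It was at 1.67, 1.01, 0.96 and 0.00 in unirradiated intestine and at -2.90, -2.78, -4.06 and -2.69 in unirradiated feces, a 16.2-fold difference (-4.01 ± 0.34, adjusted p = 3.6e-09). miR-6937-5p followed at -2.75, then miR-7009-5p (-2.68), miR-7058-5p (-2.33), miR-6998-5p (-2.32) and miR-7005-5p (-2.01), all with adjusted p of 7.3e-05 or less. The feces means of miR-7009-5p, miR-7058-5p and miR-6998-5p were at or near the floor, which sets the size of their differences. Without scaling, miR-6937-5p, miR-7009-5p, miR-7058-5p and miR-7005-5p turned positive.

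Between serum and intestine 37 of the 92 arms differed, 24 higher in serum and 13 lower, beside 58.7% of all miRNAs tested (21.3% higher, 37.3% lower). Of these, 11 and 7 were not detected in the dimmer group, and for 2 and 2 of them no fold above 1 could be bounded. With quantile normalization the split was 35 and 8, and with the percentile over all miRNAs 28 and 8. Over all 581 miRNAs tested these settings gave 205 and 185, and 182 and 201. The groups did not overlap in 46 of the 92, against 64.2% of all tested, and 37 were at the floor in both. miR-7045-5p was 11.9-fold higher in serum (3.58 ± 0.23, adjusted p = 7.5e-11), with -0.28 and -0.38 against -3.85, -4.21, -3.66 and -3.90. miR-6978-5p and miR-6995-5p were 7.57-fold and 6.70-fold higher. miR-6938-5p and miR-7031-5p, detected on no unirradiated intestine array, were at least 1.48-fold and 1.89-fold higher.

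In the other direction, miR-7002-5p (at least 2.00-fold), miR-6997-5p (2.14-fold), miR-7058-5p (3.03-fold), miR-6998-5p (2.07-fold) and miR-7009-5p (1.66-fold) were not detected in unirradiated serum, these folds all being lower bounds. miR-7042-5p was 6.84-fold lower in serum than in intestine and was detected in both.

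Between feces and serum 59 of the 92 arms differed, 46 higher in feces and 13 lower, beside 49.6% of all miRNAs tested (26.7% and 22.9%). Here too an arm could enter only through feces, where it was high, and 34 arms were detected on every array of feces alone. The split is therefore not independent of how arms entered. The groups did not overlap in 59 of the 92, against 48.9% of all tested, and 9 were at the floor in both. Without scaling the split was 84 and 1, beside 397 and 32 of all 581 miRNAs. With normexp it was 15 and 12, beside 41 and 127. Of the 46 higher in feces, 29 were not detected in unirradiated serum. For 14 of these no fold above 1 could be bounded, and for 6 of the 14 every detected probe lay lower in feces than its bound in serum. miR-7020-5p was 29.3-fold higher in feces, miR-7050-5p 26.0-fold and miR-6987-5p 19.3-fold, the last 2 being detected on 1 of 2 serum arrays. miR-7069-5p, detected on none, was at least 4.63-fold higher. Serum held more of miR-6978-5p, at -1.97 and -1.41 against -4.42, -4.78, -5.40 and -5.39 in feces (-3.31 ± 0.35, adjusted p = 2.4e-07). It also held more of miR-6938-5p (-3.25), miR-6931-5p (-3.07), miR-6937-5p (-2.55), miR-7047-5p (-2.38) and miR-6988-5p (-2.07). miR-6938-5p and miR-6988-5p were detected on 1 of 4 feces arrays with a mean at the floor of -6.41, which sets the size of their differences. Of these 6, miR-6978-5p, miR-6931-5p, miR-6937-5p and miR-7047-5p turned positive without scaling.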

How the data were processed

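The deposited scanner output was made by the authors with Agilent Feature Extraction 11.5, per the submitters' processing notes. The processed signal, a deposited linear intensity per spot, is background-subtracted and carries no normalization across arrays, per the file headers. Each of 22 one-colour arrays had 58594 spots, 56430 of them for 4415 probes of 1881 miRNAs, none of those saturated. The deposited series table lay within 1% of this intensity in every column, with column medians from -1.55 to 2.1. The array design names mm9, which was not used here.

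Signals were averaged over spots not flagged as outlying, summed over probes, scaled to the array's 75th percentile over miRNAs detected on all arrays of the fit (326 in feces, 268 in intestine, 121 in serum, 81 for all types), floored and log2-transformed. Each array's lowest scaled value among detected miRNAs was found, and their median set the floor. Dose fits in limma 3.58.1 (R 4.3.3; lmFit and eBayes) required detection on as many arrays as the smaller dose group has samples, and the fit of all 6 groups those detected on every array of at least 1 group. Only the limma step of the dose fits was tested on simulated log2 values. The scaling, floor, detection filter, probe bounds and fit of all 6 groups were not. The number of arrays limits the precision.

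Alternatives were normexp (offset 50), quantile normalization, the percentile over all miRNAs, no scaling, no filter, detection on every array, row and replicate blocks, array weights, each array left out and, chosen after seeing the data, the total gene signal. Named arms were all those that passed a dose test (up to 12 per direction), up to 8 per direction for differences of dose effects, 6 per direction between sample types, and 12 detected on all arrays. The members, lists and tests were chosen with earlier results of these data known. Same-numbered samples of both doses were not treated as pairs: the correlation of their deviations was -0.43, -0.22, 0.40 and 0.26 in feces and -0.56, -0.02, 0.32 and 0.44 in intestine.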

Additional observations from a re-analysis of the deposited data

Results flagged for a closer look

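In intestine at 10 Gy, 1 sample stood far from the other 3 for 2 arms: miR-7005-5p in replicate 1 (-1.58, with the median of the others at -0.89) and miR-6998-5p in replicate 2 (-3.87, with the others at the floor of -5.79). Of 49 groups examined 2 were marked, where chance marks about 1 in 20.

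The dose change differed between feces and intestine by the test of the difference itself for 16 named arms. It was lower in feces for miR-7088-5p (-2.05), miR-7083-5p (-1.90), miR-6989-5p (-1.82), miR-7031-5p (-1.64), miR-7118-5p (-1.60), miR-7040-5p (-1.48), miR-6994-5p (-1.47) and miR-6901-5p (-1.42). It was higher in feces for miR-6997-5p (0.98), miR-7016-5p (1.37), miR-7047-5p (1.74), miR-6998-5p (1.86), miR-6937-5p (1.93), miR-7042-5p (2.08), miR-6931-5p (2.15) and miR-7002-5p (2.36). The dose change of miR-6998-5p in feces was 0, at the floor.

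Between serum and intestine it was lower in serum for miR-7031-5p (-3.84), miR-6988-5p (-2.07), miR-7015-5p (-2.03), miR-7040-5p (-1.97), miR-6944-5p (-1.47), miR-7014-5p (-1.43), miR-7118-5p (-1.41) and miR-7045-5p (-1.13). It was higher in serum for miR-7002-5p (1.84), miR-6998-5p (1.86) and miR-6931-5p (2.28). The first 2 of these were not detected on any serum array, with a serum change of 0, so that the value restates the fall in intestine. miR-7014-5p was not detected on any serum array either (change -0.04), so that its value largely restates the rise in intestine. miR-6988-5p was not detected on any intestine array, where its change was 0.15 against -1.92 in serum. miR-7015-5p was detected only on 1 serum array at 0 Gy and 1 intestine array at 10 Gy. In feces, miR-7083-5p, miR-6989-5p, miR-6994-5p, miR-6901-5p and miR-7016-5p likewise differ from an intestine change of 0 at the floor. miR-7031-5p combined a change of -2.49 in serum with one of 1.35 in intestine, where it was detected on none of 4 arrays at 0 Gy and on 2 at 10 Gy.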

How the results depend on the processing

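Numbers of arms that passed are set against 8 in feces, 14 in intestine, 1 in serum, 23 and 11 for the difference of dose effects from intestine in feces and serum, and, at 0 Gy, 66 for feces against intestine, 37 for serum against intestine and 59 for feces against serum. With normexp they were 1 in feces, 7 and 59 for the differences of dose effects, and 40, 14 and 27 at 0 Gy. Over all miRNAs tested, normexp gave 1 higher and 2 lower in feces, and 18 and 4 and 402 and 12 for the differences. At 0 Gy it gave 42 and 339, 34 and 137, and 41 and 127. Without a filter they were 0 in feces, 2 in intestine, 0 in serum, and 15 and 7 for the differences. There limma at an unadjusted p below 0.05 gave 35 arms in feces and 7 in serum. Over all 1881 miRNAs, no filter gave 0 higher and 3 lower in feces, 28 and 4 in intestine and 0 and 0 in serum. For the differences it gave 24 and 38 and 8 and 33. With detection on every array feces gave 1, a rise, and serum 0 (18 and 4 at an unadjusted limma p below 0.05). Over all miRNAs tested this setting gave 1 higher and 2 lower in feces and 1 and 1 in serum. Array weights gave 26 in feces and 2 in serum, the row as a block 5 in feces, and no scaling 20 for serum against intestine. Over all miRNAs tested, array weights gave 106 higher and 66 lower in feces and 3 and 10 in serum. The row as a block gave 15 and 19 in feces, and no scaling 74 and 190 for serum against intestine. In serum, quantile normalization gave 3, the percentile over all miRNAs 2, and the total gene signal, chosen after seeing the data, 2. Over all miRNAs tested in serum these gave 3 higher and 6 lower, 2 and 11, and 2 and 8.

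With the replicate block 9 arms passed in feces, 14 in intestine and 0 in serum (3 at an unadjusted limma p below 0.05). Over all miRNAs tested it gave 18 higher and 23 lower in feces, 83 and 51 in intestine and 0 and 0 in serum. For the differences of dose effects 21 and 8 arms passed, beside 64 higher and 55 lower and 16 and 40 of all 581. The replicate numbers gave no pairing, with correlations of 0.28 and 0.44 in serum over 2 pairs. Leaving out 1 array gave 0 to 22 in feces, 9 to 17 in intestine, 1 to 3 in serum, 15 to 28 and 5 to 14 for the differences, and 59 to 68, 34 to 40 and 53 to 60 at 0 Gy.

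Directions reversed with normexp in feces for miR-7039-5p (0.0236) and miR-6946-5p (0.0108), in intestine for miR-6995-5p (-0.14), miR-6987-5p (-0.13), miR-6944-5p (-0.0219), miR-7088-5p (-0.0603) and miR-7014-5p (-0.0662), and in serum for miR-7031-5p (0.00149). For the difference between feces and intestine they reversed with normexp for miR-7083-5p (0.18), miR-6989-5p (0.16), miR-7031-5p (0.18), miR-7040-5p (0.0616) and miR-6901-5p (0.16). For that between serum and intestine they did for miR-7031-5p (0.39), miR-6988-5p (0.57), miR-7015-5p (0.63), miR-7040-5p (0.31), miR-6944-5p (0.26), miR-7014-5p (0.66) and miR-7045-5p (0.0550). Without scaling, miR-6997-5p gave -0.47 for the difference between feces and intestine. At 0 Gy it reversed feces against intestine for miR-6937-5p (0.61), miR-7009-5p (0.43), miR-7058-5p (0.22) and miR-7005-5p (1.35), and feces against serum for miR-6978-5p (0.14), miR-6931-5p (0.38), miR-6937-5p (0.90) and miR-7047-5p (1.06). The cause was not tested. Signal over background limits the arms near the floor, and the 2 unirradiated serum arrays limit the serum comparisons.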
